A study of Homo sapiens with 12 samples.

Results

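Culture in acid medium without added lactate was set against control medium in KKU-213A, a human line from a cholangiocarcinoma, a bile duct cancer, with papillary and non-papillary parts. The members are all 1721 genes in the submitters' table of this comparison, of 5308 genes in any of their 3 tables. The genes are those the submitters kept for this comparison. A gene missing from the table was not analysed here and is not shown to be unaffected. Poly(A) RNA was measured in 12 libraries, 3 in each of 4 groups. Acidosis cells had grown for at least 5 passages in low-glucose DMEM at pH 6.5 with 25 mM HEPES, a buffer. Lactic acidosis cells had at least 5 passages at pH 6.7 with 25 mM lactate and 25 mM HEPES, and lactosis cells at least 5 passages at pH 7.4 with 25 mM lactate. Control cells grew in the low-glucose medium, and the labels give no HEPES, pH or passage number for them. Acid, the buffer and time in the medium therefore cannot be told apart against control. The data come from a single cell line. Nothing in the labels says that the 3 libraries of a group were separate cultures, so the p-values measure only how these libraries vary, which may be technical.

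Tumour tissue is often acid, because glycolytic cells export protons together with lactate. Cells meet acid medium through proton-sensing channels and receptors, through transporters that move protons and bicarbonate, and through stress programs that adjust protein folding, translation and metabolism. The heat shock response raises chaperones that fold and protect proteins. The integrated stress response works through the transcription factor ATF4, which turns on amino acid transport and synthesis and, under strong stress, the death-linked factor DDIT3. The paralogs MondoA and ChREBP sense glucose phosphates and drive TXNIP and ARRDC4, which restrain glucose uptake.

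The deposited value of a gene in a library is an expression level scaled by gene length and library, and read depth is unknown. Differences are given as acidosis minus control on log2(value + 1), which understates changes of genes with low values. A gene was called when limma gave an adjusted p under 0.05 over all 1721 genes (Benjamini-Hochberg). Because the submitters kept the listed genes on these same libraries, the calls describe how the listed differences compare with the spread and are not independent evidence. The median listed value was 29.1, 26.2 and 25.5 in the acidosis libraries, against 19.4, 25.6 and 27.2 in control replicates 1, 2 and 3. Control replicate 1 thus lay low. It was also the control farthest from the acidosis mean in 1042 of the 1721 genes, and in 918 genes (53.3%) after the libraries were rescaled with weights fitted to the submitters' group means. Its part in the results was not tested, and values without it are given where they moved. The median SD over genes was 0.109 in acidosis and 0.248 in control on the log2 scale, and 0.102 and 0.137 after rescaling. The defining markers of bile duct epithelium on the list (KRT7, KRT19, EPCAM and SOX9 among 26 mucins and biliary markers) were not in the table, so the labelled cell type could not be checked from these genes. Of the lists of other cell types, none of 14 hepatocyte, 11 blood and 22 muscle markers was in the table. Of 12 fibroblast and endothelial markers 1 was listed: PECAM1 stood at 1.28, 0.86 and 0.73 in acidosis libraries, against 0.11, 0.25 and 0.54 in control libraries (0.59, adjusted p = 0.0155, limma), a call that was lost without acidosis replicate 1 or 2 or control replicate 2. In bulk RNA, fewer cells of a kind and less RNA per cell cannot be told apart.

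In acidosis cells, most listed chaperones of the heat shock response, most listed DNA replication genes and the glucose-sensing target TXNIP were higher. The 10 listed of 28 targets of the amino acid stress factor ATF4 and most listed amino acid transporters were lower. The 4 listed of 25 hypoxia targets and part of the listed cholesterol synthesis genes were lower too. Of the 1721 genes, 1033 were called (60.0%), 617 higher (35.9%) and 416 lower (24.2%). The median absolute difference of the called genes was 0.60, which is less than 2-fold, and 42 called genes were at least 2-fold higher and 63 at least 2-fold lower. The 3 acidosis values lay above all 3 control values in 864 genes (50.2%) and below them in 435 genes (25.3%). Over all listed genes the median difference was 0.32, so a list median near 0.32 is that of the whole table. The split depended on scale: 59.7% of the calls were higher with the deposited values and 49.1% of 1310 calls when the library medians were made equal, which moved the median of all genes by -0.17. Leaving out control replicate 1 gave 1236 calls, 47.0% of them higher, and leaving out acidosis replicate 1 gave 543 calls, 35.7% of them higher. Without acidosis replicate 2 or 3 there were 425 and 586 calls, and without control replicate 2 or 3, 526 and 1251. Library weights gave 1653 calls, 60.6% of them higher. The count of a list under another setting is to be read against the calls over all genes in that setting. None of the 1033 calls changed direction under any of these settings.

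**Figure D1:**
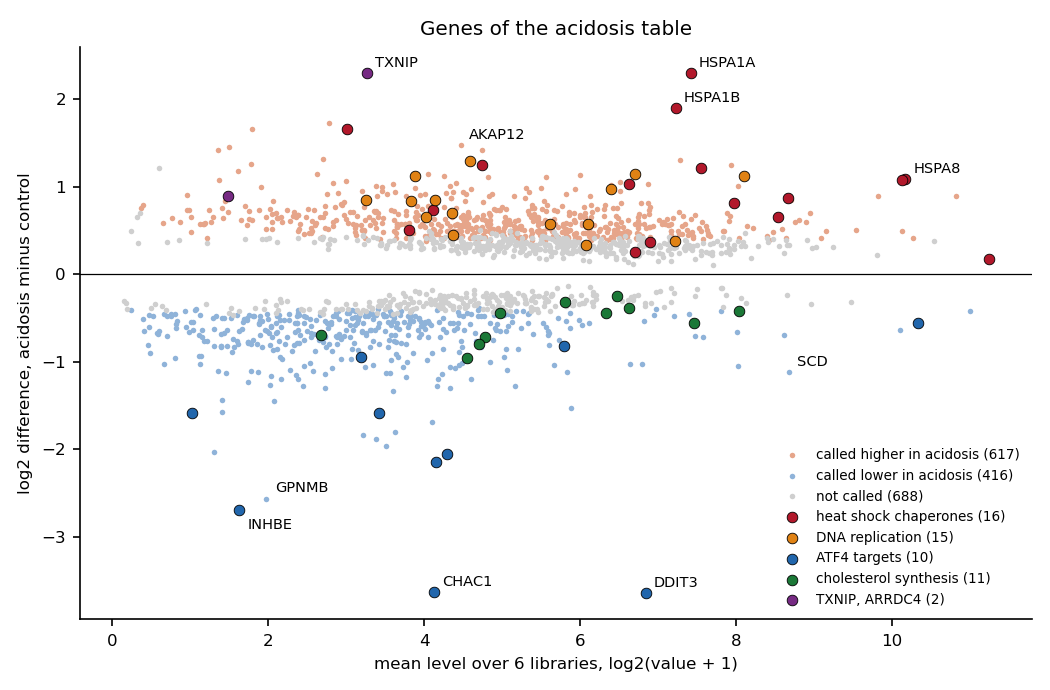
Difference between acidosis and control (log2, y axis) against the mean level over the 6 libraries (log2(value + 1), x axis) for the 1721 genes of the table, with the members of 5 lists in darker dots. TXNIP and HSPA1A lie highest at 2.30 each, DDIT3 and CHAC1 lowest at -3.64 and -3.63, and most genes that were not called lie nearest to 0.

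Heat shock chaperones were among the largest rises. These proteins bind unfolded or nascent proteins, and their genes are driven by the transcription factor HSF1 at heat shock elements, inverted repeats of the letters GAA. Of the 23 genes on the list, 16 were in the table and 13 were called higher, against 35.9% of all listed genes. No member was called lower, and the list median was 0.95, against 0.32 over all genes. HSPA1A and HSPA1B, the neighbouring genes of inducible HSP70, had the 2 largest differences of the list. HSPA1A (chromosome 6, 31815543 to 31817942, RefSeq on GRCh38.p14) stood at 376.96, 387.65 and 371.95 in acidosis libraries, against 51.83, 73.26 and 115.36 in control libraries. The groups did not overlap, and the difference was 2.30 (SE 0.227, adjusted p = 6.67e-06, limma), a 4.93-fold change. HSPA1B stood at 309.86, 276.87 and 278.64 in acidosis, against 55.28, 76.64 and 104.75 in control, a difference of 1.90 (SE 0.205, adjusted p = 1.38e-05, limma). These genes share 70.0% of their 75-base windows with each other, so how reads were split between them is uncertain.

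The letters of 3 of these promoters are shown because they hold heat shock elements, in capitals (GAANNTTC, which reads the same on both strands). Each run is the 250 bases before the transcription start that RefSeq's promoter table uses on GRCh38.p14, 5′ to 3′ on the strand of the gene: HSPA1A at chr6:31815293-31815542, plus strand, HSPA8 at chr11:123062137-123062386, minus strand, and CHORDC1 at chr11:90223050-90223299, minus strand.
HSPA1A: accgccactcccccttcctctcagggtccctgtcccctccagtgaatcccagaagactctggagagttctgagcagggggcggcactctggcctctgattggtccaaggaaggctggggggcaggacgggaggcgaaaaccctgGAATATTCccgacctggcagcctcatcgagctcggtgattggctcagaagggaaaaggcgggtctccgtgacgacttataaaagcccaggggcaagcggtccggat
HSPA8: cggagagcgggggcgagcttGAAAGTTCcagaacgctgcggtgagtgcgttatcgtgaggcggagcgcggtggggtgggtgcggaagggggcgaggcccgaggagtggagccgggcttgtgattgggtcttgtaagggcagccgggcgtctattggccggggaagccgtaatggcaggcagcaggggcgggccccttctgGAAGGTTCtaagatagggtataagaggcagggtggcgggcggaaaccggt
CHORDC1: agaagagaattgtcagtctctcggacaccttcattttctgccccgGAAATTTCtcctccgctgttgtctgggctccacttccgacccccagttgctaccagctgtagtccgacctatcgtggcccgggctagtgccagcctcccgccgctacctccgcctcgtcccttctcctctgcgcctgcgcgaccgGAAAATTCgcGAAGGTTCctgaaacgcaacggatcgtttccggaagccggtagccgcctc
For HSPA8 that start lies inside the full span of the gene, which reaches to 123062462. The element starts 106 bases before the start of HSPA1A. In HSPA8 it lies 230 and 50 bases before the start, and in CHORDC1 205, 60 and 50 bases before it. Of the 16 listed chaperone promoters 5 held the element (31.2%), the others being HSPA1B and DNAJA1, against 5.78% of 35116 human promoters of the same length. The share was 3.31% of the promoters of all listed genes and 4.88% of those called higher. A longer form, with a further GAA after 2 more bases, stood in HSPA8 and CHORDC1 (12.5% of the 16), against 0.441% of all promoters and 0.493% of those of all listed genes. A match of letters describes the window and does not show that a factor was bound.

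Of the other HSP70 genes, HSPA2 and HSPA8 rose, and HSPA4 was not called (0.37, adjusted p = 0.0958, limma), with overlapping groups. HSPA2, an HSP70 best known from the testis, stood at 13.64, 13.32 and 13.26 in acidosis, against 2.32, 3.46 and 5.42 in control, a difference of 1.66 (adjusted p = 4.98e-05, limma). HSPA8, the constitutive HSP70, had the highest level of the called HSP70 genes, with 1736.22, 1638.76 and 1649.36 in acidosis, against 516.35, 840.09 and 1120.02 in control (1.09, adjusted p = 0.00267, limma). All 3 acidosis values lay above the highest control in both genes. HSPH1, the HSP110 nucleotide exchange factor, averaged 1.03 higher, but 0.65 without control replicate 1.

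The J-domain partners, which hand clients to HSP70, were called in part. DNAJA1 stood at 289.33, 274.81 and 290.04 in acidosis, against 93.29, 112.67 and 174.64 in control (1.21, adjusted p = 0.000779, limma). DNAJA4 (0.74) and DNAJB4 (0.51) were also called, and each lost its call without acidosis replicate 1 (adjusted p = 0.129 and 0.114, limma) or 2 (0.0519 and 0.103). Without control replicate 1 they differed by 0.36 and 0.32, and DNAJA4 lost its call there too (0.063), as DNAJB4 did without control replicate 2 (0.0521). DNAJB1, often used as a heat shock marker, stood at 118.99, 111.95 and 109.45 in acidosis, against 83.89, 101.91 and 98.31 in control, and was not called (0.26, adjusted p = 0.137, limma). DNAJB1 thus did not overlap between groups, and its difference was below the 0.32 median of the table.

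Members of the HSP90 system rose in part. HSP90AA1, the inducible HSP90, stood at 1681.8, 1543.06 and 1633.84 in acidosis, against 468.24, 790.7 and 1213.15 in control (1.08, adjusted p = 0.00519, limma). HSP90AB1, the constitutive form, had 2727.84, 2507.26 and 2478.71 in acidosis, against 1921.4, 2323.69 and 2600.66 in control, and was not called (0.18, adjusted p = 0.298, limma). CHORDC1, an HSP90 co-chaperone, stood at 43.68, 39.34 and 37.7 in acidosis, against 11.39, 16.71 and 22.79 in control (1.25, adjusted p = 0.000714, limma). AHSA1, which stimulates the HSP90 ATPase, and STIP1, which links HSP70 to HSP90, differed by 0.81 and 0.65, and STIP1 lost its call without acidosis replicate 1 or 2 (adjusted p = 0.0654 and 0.0519, limma) and differed by 0.42 without control replicate 1. HSPE1, the mitochondrial chaperonin cofactor, averaged 0.87 higher. Without acidosis replicate 1, and likewise without acidosis replicate 2, 10 of the 16 chaperones passed, and with library weights 15 passed. Of all 1721 genes, 543 were called without acidosis replicate 1, 425 without acidosis replicate 2 and 1653 with library weights.

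**Figure D2:**
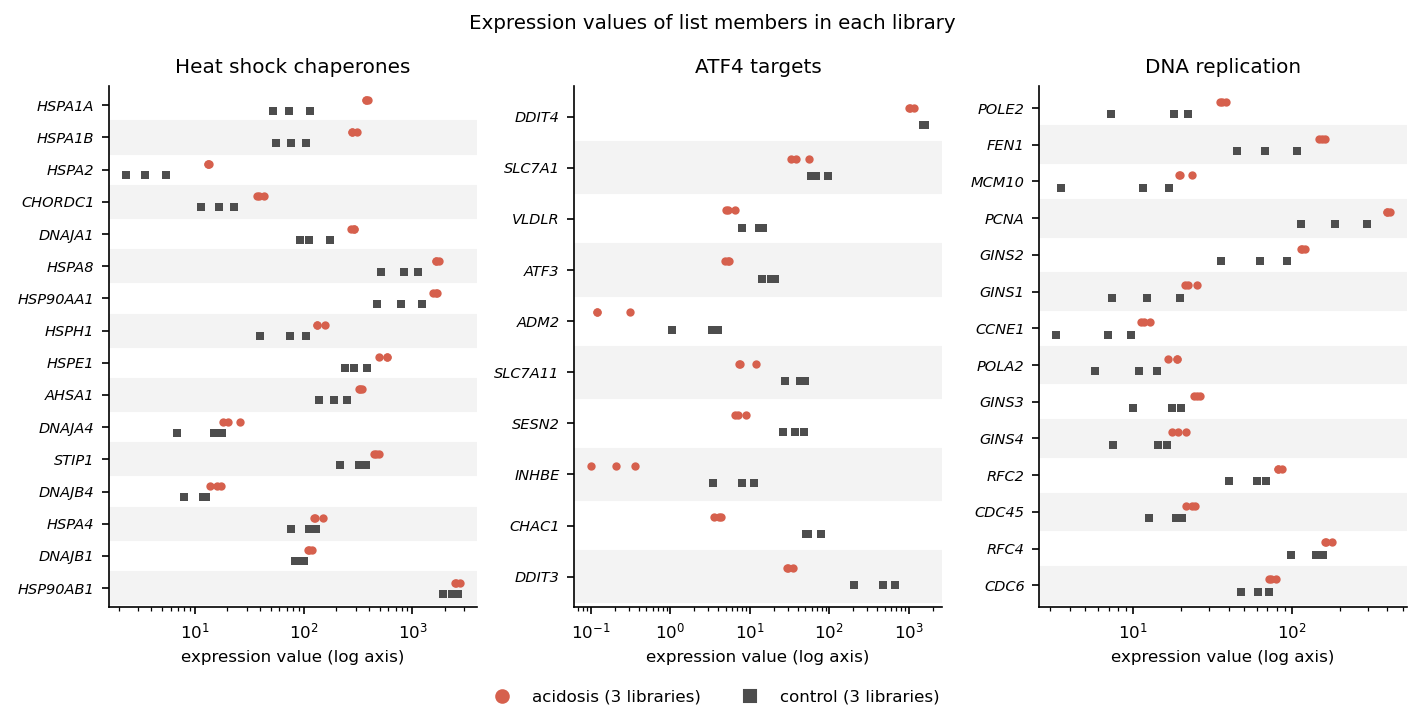
Expression value in each acidosis library (circles) and each control library (squares) for the 16 heat shock chaperones, 10 ATF4 targets and 14 of the 15 DNA replication genes in the table (log axes). The acidosis circles lie close together and to the right of the squares for most chaperones and replication genes, and to their left for all 10 ATF4 targets, while the controls spread more widely.

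Targets of ATF4 fell. Of 28 genes on the list 10 were in the table, and all 10 were called lower, against 24.2% of all listed genes. Their median difference was -1.82. In each of the 10 genes the 3 acidosis values lay below the 3 control values, as they did in 25.3% of all listed genes. DDIT3, the CHOP transcription factor (chromosome 12, 57516588 to 57520517), stood at 34.95, 29.18 and 30.43 in acidosis, against 678.38, 480.78 and 202.53 in control. Its controls differed among themselves, and the difference between groups was -3.64 (SE 0.306, adjusted p = 1.23e-06, limma). DDIT3 shares 25.0% of its windows with the overlapping gene MARS. CHAC1, which degrades glutathione (chromosome 15, 40953471 to 40956512), stood at 3.59, 4.29 and 4.05 in acidosis, against 51.56, 78.56 and 54.47 in control, a difference of -3.63 (SE 0.183, adjusted p = 2.78e-09, limma). It had the smallest adjusted p of the list, and its controls lay closer together than those of DDIT3.

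Other targets fell as well. INHBE, a secreted inhibin subunit, stood at 0.21, 0.1 and 0.36 in acidosis, against 11.15, 7.94 and 3.47 in control (-2.69, adjusted p = 6.99e-06, limma). SESN2, a sestrin that restrains the growth kinase mTORC1, stood at 8.89, 6.53 and 7.11 in acidosis, against 37.44, 48.59 and 26.18 in control (-2.14, adjusted p = 6.41e-06, limma). ATF3, a stress-induced repressor, had 5.29, 4.88 and 5.48 in acidosis, against 18.27, 20.82 and 14.38 in control (-1.58, adjusted p = 1.38e-05, limma). In all 3 genes the highest acidosis value was less than the lowest control value. ADM2, a calcitonin-family peptide at low level, had 0.12, 0.12 and 0.31 in acidosis, against 3.96, 3.36 and 1.04 in control. The smallest difference of the list was that of DDIT4, another inhibitor of mTORC1 that hypoxia also induces, at -0.55, and its call was lost without acidosis replicate 2 or 3 or control replicate 2 (adjusted p = 0.0779, 0.0653 and 0.0541, limma). Leaving out single libraries left between 8 and 10 of the 10 called. The ATF4 motif TGATGNAAT, searched on both strands, stood in 0 of the 8 ATF4 target promoters in the RefSeq table. It is held by 0.888% of all promoters and 0.352% of those of the listed genes. For a motif this rare, 0 of 8 decides nothing. Sites with other letters, or outside the 250 bases before the start, were not searched for. The wider unfolded protein response was nearly missing from the table: of 22 genes for chaperones and sensors of the endoplasmic reticulum, ERN1, the sensor IRE1, was the single listed gene, with 1.85, 1.35 and 1.28 in acidosis, against 3.58, 7.07 and 3.28 in control (-1.12, adjusted p = 0.00172, limma).

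Amino acid transporters fell with them. Of 24 genes on this list 6 were in the table, with a median of -0.93. Of these 5 were called lower and 1 higher, against 24.2% and 35.9% of all listed genes. SLC7A11 and SLC7A1 are on both this list and that of ATF4 targets. SLC7A11, the cystine importer, stood at 11.83, 7.5 and 7.3 in acidosis, against 43.4, 49.33 and 27.66 in control (-2.05, adjusted p = 1.38e-05, limma). SLC1A4, a transporter of small neutral amino acids, stood at 9.94, 8.5 and 7.43 in acidosis, against 33.41, 36.7 and 21.76 in control (-1.69, adjusted p = 2.87e-05, limma). SLC38A2, a glutamine carrier, differed by -1.05 and SLC7A1, a carrier of cationic amino acids, by -0.82. The call of SLC7A1 was lost without control replicate 2 (-0.62, adjusted p = 0.0504, limma). Without control replicate 2 the list had 3 called, all lower.

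TXNIP and HSPA1A had the 2 largest differences among the genes called higher. TXNIP, an arrestin-family protein that restrains glucose uptake and binds thioredoxin (chromosome 1, 145992435 to 145996579), stood at 21.56, 19.96 and 19.64 in acidosis, against 2.42, 3.76 and 3.97 in control. The groups were far apart, with a difference of 2.30 (SE 0.177, adjusted p = 4.73e-07, limma), a 4.94-fold change. Its relative ARRDC4 stood at 3.19, 2.9 and 2.43 in acidosis, against 1.11, 1.12 and 0.91 in control (0.90, SE 0.161, adjusted p = 0.00105, limma). These were the 2 listed genes of 6 targets of MondoA, and both kept their calls with each library left out in turn. An E box, CACGTG, stands in the 250 bases before ARRDC4, 210 bases before the start, and not in those before TXNIP. It is held by 6.34% of all promoters and 9.16% of those of all listed genes. Sites with other letters or outside these bases were not searched for.

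Most listed genes of glucose use and of the hypoxic response fell. Of 31 genes of glycolysis and lactate handling 4 were in the table. Of these 3 were called lower, against 24.2% of all listed genes, and none higher. SLC2A3, the glucose transporter GLUT3, stood at 1.38, 1.09 and 0.85 in acidosis, against 1.82, 3.11 and 3.33 in control (-0.82, adjusted p = 0.00504, limma). ALDOC, an aldolase, stood at 23.09, 24.42 and 20.25 in acidosis, against 27.75, 58.44 and 53.01 in control (-0.94, adjusted p = 0.00653, limma). PFKFB2, which sets fructose 2,6-bisphosphate, was called (-0.52) although its groups overlapped, and it lost its call without acidosis replicate 2 or 3 or control replicate 2 or 3 (adjusted p = 0.115, 0.132, 0.12 and 0.0799, limma). LDHA, which makes lactate from pyruvate, was not in the table.

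Of 25 targets of the hypoxia-inducible factors 4 were listed, with a median of -0.78. All 4 were called lower, against 24.2% of all listed genes. DDIT4 is 1 of the 4 and is also on the list of ATF4 targets. VEGFA, the vascular growth factor, stood at 82.56, 76.22 and 73.22 in acidosis, against 165.03, 183.77 and 128.84 in control (-1.02, adjusted p = 0.000782, limma). TMEM45A, a membrane protein of unsettled function, had 7.58, 6.66 and 6.1 in acidosis, against 11.84, 17.86 and 19.13 in control (-1.13, adjusted p = 0.000714, limma). Both kept their calls with each library left out, while LOX, the collagen cross-linker (-0.54), lost its call, like DDIT4, without acidosis replicate 2 or 3 or control replicate 2 (adjusted p = 0.0614, 0.0812 and 0.0866, limma). Of 32 genes of the citrate cycle and pyruvate entry 3 were listed, and PPARGC1A, the coactivator of mitochondrial biogenesis, was called. It stood at 0.74, 0.64 and 0.49 in acidosis, against 2.79, 4.55 and 3.03 in control (-1.44, adjusted p = 4.98e-05, limma). IDH3A and SDHA, enzymes of the cycle, differed by 0.24 and 0.19 and were not called.

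Genes that copy DNA rose. Of 33 genes on the list 15 were in the table, with a median of 0.84. Of these 13 were called higher, against 35.9% of all listed genes, and none lower. PCNA, the sliding clamp of the polymerases (chromosome 20, 5114953 to 5126622), stood at 399.06, 395.83 and 416.53 in acidosis, against 113.81, 187.15 and 296.71 in control. No values overlapped, and the difference was 1.12 (SE 0.253, adjusted p = 0.00427, limma). POLE2, a subunit of polymerase epsilon, stood at 35, 38.35 and 36.44 in acidosis, against 7.26, 18 and 22.24 in control (1.29, adjusted p = 0.00349, limma). FEN1, which trims Okazaki fragments, stood at 161.93, 147.01 and 153.81 in acidosis, against 44.97, 67.55 and 107.47 in control (1.15, adjusted p = 0.00267, limma). In each of these genes control replicate 1 was the lowest library and control replicate 3 the nearest to acidosis. Without control replicate 1 the differences were 0.84 for POLE2 and 0.60 for GINS2, against 0.97 with all libraries.

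GINS2 is a subunit of the replicative helicase, and its 250 bases and those of PCNA are shown because they hold an E2F site, the motif through which E2F factors drive S phase genes. The motif was searched as TTTCCCGC or TTTGGCGC on both strands, and its match GCGGGAAA, the reverse complement of TTTCCCGC, is in capitals. The runs are at chr20:5126623-5126872, minus strand, for PCNA, and at chr16:85688955-85689204, minus strand, for GINS2, on GRCh38.p14.
PCNA: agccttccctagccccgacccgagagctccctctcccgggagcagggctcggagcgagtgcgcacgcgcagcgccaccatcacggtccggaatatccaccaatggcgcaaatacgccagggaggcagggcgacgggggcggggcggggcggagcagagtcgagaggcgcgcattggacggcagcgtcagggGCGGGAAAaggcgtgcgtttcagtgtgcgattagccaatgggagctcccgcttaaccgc
GINS2: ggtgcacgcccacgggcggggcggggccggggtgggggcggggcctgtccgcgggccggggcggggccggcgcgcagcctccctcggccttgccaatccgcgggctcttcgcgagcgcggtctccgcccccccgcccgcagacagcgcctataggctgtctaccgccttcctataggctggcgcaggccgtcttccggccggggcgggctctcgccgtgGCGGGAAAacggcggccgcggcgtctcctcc
The match starts 59 bases before PCNA and 31 bases before GINS2. These were 2 of 13 replication promoters in the RefSeq table (15.4%), against 1.93% of all promoters. The share was 2.96% of the promoters of all listed genes and 3.52% of those called higher.

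Most of the other replication genes rose as well. MCM10, which helps to start replication, stood at 23.41, 19.46 and 19.79 in acidosis, against 3.52, 11.5 and 16.72 in control (1.12, adjusted p = 0.0152, limma). Its controls spread widely, and the difference was 0.55 without control replicate 1, while the call was lost without acidosis replicate 1 (1.04, adjusted p = 0.0775, limma). GINS1, GINS3 and GINS4, the other subunits of the GINS complex, differed by 0.85, 0.70 and 0.65. CCNE1, the cyclin of S phase entry, differed by 0.85, POLA2, of polymerase alpha, by 0.84, and RFC2, of the clamp loader, by 0.58. CDC45, of the helicase, differed by 0.45. Without control replicate 1 the differences were 0.53 for GINS1, 0.41 for GINS3, 0.33 for GINS4, 0.48 for CCNE1, 0.50 for POLA2, 0.37 for RFC2 and 0.25 for CDC45. CDC45 lost its call without each library but control replicate 3, with adjusted p from 0.0701 to 0.138 (limma), RFC2 without each acidosis library (0.0602 to 0.0647) and GINS4 without acidosis replicate 1 or 2 (0.104 and 0.065). CDC6 and RFC4 were not called (0.33 and 0.38). Without acidosis replicate 1, 4 of the 15 were called, namely PCNA, POLE2, FEN1 and GINS2, and with library weights all 15 were. Of all 1721 genes, 543 were called without acidosis replicate 1 and 1653 with library weights.

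Few mitosis and histone genes were in the table. Of 24 mitosis genes 2 were listed. AURKB, the Aurora B kinase, was called with 140.8, 155.32 and 155.83 in acidosis, against 64.19, 102.7 and 111.24 in control (0.73, adjusted p = 0.0103, limma). CDC20, an activator of the anaphase-promoting complex, was not called (0.29, adjusted p = 0.142, limma). Of 19 replication-dependent histones 3 were listed and all 3 called lower, against 24.2% of all listed genes. HIST2H2BE stood at 6.66, 3.86 and 4.76 in acidosis, against 10.7, 11.24 and 10.18 in control (-0.97), HIST1H2BD differed by -0.81, and HIST1H2BK, which shares 52.5% of its windows with another gene, by -0.42. HIST1H2BK lost its call without any of 5 libraries, control replicate 1 being the exception, with adjusted p from 0.0824 to 0.114 (limma). Most histone messages carry no poly(A) tail, and the libraries were selected for poly(A), so these values need not follow histone transcription.

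Genes that handle protons were sparse in the table. None of 25 genes of proton export and bicarbonate transport was listed, although 1721 genes were. Of 15 carbonic anhydrases, which interconvert carbon dioxide and bicarbonate, 1 was listed: CA5B, a mitochondrial form, stood at 2.62, 1.97 and 1.52 in acidosis, against 2.92, 3.73 and 2.95 in control (-0.48, adjusted p = 0.0333, limma). It shares 30.0% of its windows with another gene. CA9, the extracellular form induced by hypoxia, was not in the table. Of 21 proton-sensing receptors and channels 1 was listed: ASIC1, an acid-gated cation channel, stood at 6.42, 6.21 and 5.53 in acidosis, against 2.75, 4.26 and 4.84 in control (0.53, adjusted p = 0.0261, limma). Without control replicate 1 the difference of ASIC1 was 0.35. Neither call held without acidosis replicate 2 or control replicate 2 (adjusted p = 0.112 and 0.132 for CA5B, 0.0919 and 0.0515 for ASIC1, limma), CA5B also lost its call without acidosis replicate 3 (0.174) and ASIC1 without acidosis replicate 1 (0.0856).

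Of 40 lysosome and proton pump genes 7 were listed, and none of them encodes a pump subunit. Of these 3 were called lower and 1 higher, close to the 60.0% called over all listed genes. CTSD, the protease cathepsin D, stood at 327.37, 303.79 and 295.52 in acidosis, against 495.92, 535.04 and 466.57 in control (-0.69, adjusted p = 0.00463, limma), and 60.0% of its windows occur in another transcript. NEU1, a sialidase, stood at 38.17, 40.16 and 42.07 in acidosis, against 71.3, 70.17 and 63.1 in control (-0.75, adjusted p = 0.00291, limma). NPC1, which exports cholesterol from lysosomes, differed by -0.89. GLA, the alpha-galactosidase, was the member called higher (0.70) and lost its call without acidosis replicate 1 (0.63, adjusted p = 0.0605, limma). CTSB, the protease cathepsin B, was not called (0.15, and -0.01 with equal medians).

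Part of the listed lipid synthesis genes fell. Of 25 genes of cholesterol synthesis and its control 11 were in the table, with a median of -0.44. None was called higher, and 7 were called lower, against 24.2% of all listed genes. Among these, STARD4, a sterol carrier, stood at 21.82, 18.84 and 16.39 in acidosis, against 35.01, 37.61 and 28.19 in control (-0.79, adjusted p = 0.00396, limma). LSS, the lanosterol synthase, and TM7SF2, a sterol reductase, differed by -0.71 and -0.69. INSIG1, which holds the sterol sensor in the endoplasmic reticulum, stood at 25.73, 26.38 and 25.79 in acidosis, against 31.53, 36.11 and 39.52 in control (-0.44, adjusted p = 0.0315, limma). The groups did not overlap, but the call of INSIG1 was lost without any of 5 libraries, control replicate 1 being the exception, with adjusted p from 0.0593 to 0.111 (limma). FDFT1, the squalene synthase (-0.42), behaved alike, with adjusted p from 0.0996 to 0.154 (limma), and ACAT2 (-0.55) lost its call without acidosis replicate 2 or 3 or control replicate 2. MSMO1, MVK, CYP51A1 and the transcription factor gene SREBF2 were not called, at -0.25, -0.32, -0.38 and -0.44. Without acidosis replicate 2 or 3 or control replicate 2, 4 of the 11 passed, and 11 passed with library weights, with equal medians or without control replicate 1. Of all 1721 genes, 425, 586 and 526 passed in the former fits. In the latter fits, 1653, 1310 and 1236 of all genes passed.

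Of 15 genes of fatty acid synthesis 4 were listed and 2 called lower, against 24.2% of all listed genes. SCD, the desaturase that makes oleate (chromosome 10, 100347233 to 100364826), stood at 346.5, 264.8 and 230.45 in acidosis, against 445.3, 686.93 and 715.95 in control, a difference of -1.12 (SE 0.208, adjusted p = 0.00135, limma). SREBF1, the transcription factor of lipid synthesis, stood at 38.77, 38.02 and 35.39 in acidosis, against 57.85, 64.15 and 55.36 in control (-0.65, adjusted p = 0.00661, limma). Both kept their calls with each library left out. FADS2 and ACSS2 were not called (-0.32 and -0.43), and both passed without control replicate 1, when all 4 did. In that fit 1236 of all 1721 genes were called.

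Genes of growth factor signalling mostly rose. Of 32 genes for ERBB receptors, their ligands and the feedback on MAPK, 7 were in the table, with a median of 0.59. Of these 6 were called higher and 1 lower, against 35.9% and 24.2% of all listed genes. EGFR itself was not listed. Of the ligands, EREG, which encodes epiregulin, stood at 130.15, 116.53 and 110.63 in acidosis, against 65.74, 63.09 and 46.83 in control (1.02, SE 0.175, adjusted p = 0.000782, limma). Its groups lay well apart. TGFA differed by 0.55 with overlapping groups, and by 0.25 without control replicate 1 (adjusted p = 0.112, limma).

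Of the feedback genes, DUSP6, a phosphatase of ERK, stood at 87.7, 80.73 and 85.55 in acidosis, against 26.31, 47.46 and 61.47 in control (0.97, adjusted p = 0.00629, limma, and 0.64 without control replicate 1), and 37.5% of its windows occur in another transcript. SPRY1 and SPRY4, Sprouty inhibitors of the pathway, differed by 0.64 and 0.59 and DUSP4, another phosphatase of ERK, by 0.41. ERRFI1, an inhibitor of EGFR, was the member called lower, with 170.34, 144.02 and 131.87 in acidosis, against 204.4, 288.61 and 246.12 in control (-0.72, adjusted p = 0.00709, limma). Without acidosis replicate 1, and likewise without acidosis replicate 2, 2 members were called higher and 1 lower, and without control replicate 2, 3 were higher and 1 lower. The difference of SPRY4 was 0.37 without control replicate 1. SPRY1, SPRY4, DUSP4 and TGFA were the calls lost without acidosis replicate 1 or 2.

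Of 27 AP-1 and immediate early genes 4 were listed, 3 called higher and 1 lower, against 35.9% and 24.2% of all listed genes. FOSL1, the AP-1 subunit FRA-1 that ERK stabilises (chromosome 11, 65892049 to 65900545), stood at 246.97, 244.7 and 240.72 in acidosis, against 56.48, 114.58 and 144.13 in control (1.31, SE 0.255, adjusted p = 0.00172, limma). The acidosis libraries had an SD of 3.16 and the controls of 44.6 in expression units. BATF3, an AP-1 family factor, stood at 4.28, 3.26 and 5.82 in acidosis, against 0.93, 1.86 and 1.01 in control (1.26, adjusted p = 0.000526, limma). IER5 differed by 0.42 and lost its call without any acidosis library or without control replicate 2 (adjusted p from 0.0915 to 0.137, limma). KLF4, an epithelial transcription factor, fell to 37.19, 33.88 and 32.52 in acidosis, against 70.69, 85.45 and 60.75 in control (-1.03, adjusted p = 0.00068, limma).

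Retinoid enzymes and aldehyde dehydrogenases moved in both directions. Of 28 genes 7 were listed, 3 called higher and 1 lower, close to the 60.0% called over all listed genes. ALDH1A3, which makes retinoic acid from retinal (chromosome 15, 100879831 to 100916626), stood at 413.99, 365.08 and 355.16 in acidosis, against 88.28, 177.74 and 249.82 in control (1.25, SE 0.272, adjusted p = 0.00356, limma). All acidosis values lay above the controls, and 32.5% of its windows occur in another transcript. CRABP2, which carries retinoic acid to its receptors, stood at 23.26, 29.23 and 27.39 in acidosis, against 10.3, 15.61 and 17.19 in control (0.87, adjusted p = 0.00396, limma). CYP26A1, which breaks retinoic acid down and is itself a retinoic acid target, stood at 0.22, 0.9 and 0.54 in acidosis, against 2.02, 2.33 and 1.99 in control (-1.02, adjusted p = 0.000993, limma), and 30.0% of its windows occur in another transcript. The mitochondrial ALDH1B1 differed by 0.66 and lost its call without acidosis replicate 1 or 2 (adjusted p = 0.0605 and 0.0508, limma). ALDH3A2, ALDH18A1 and ALDH1L1 were not called, at 0.42, 0.21 and -0.39.

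**Figure D3:**
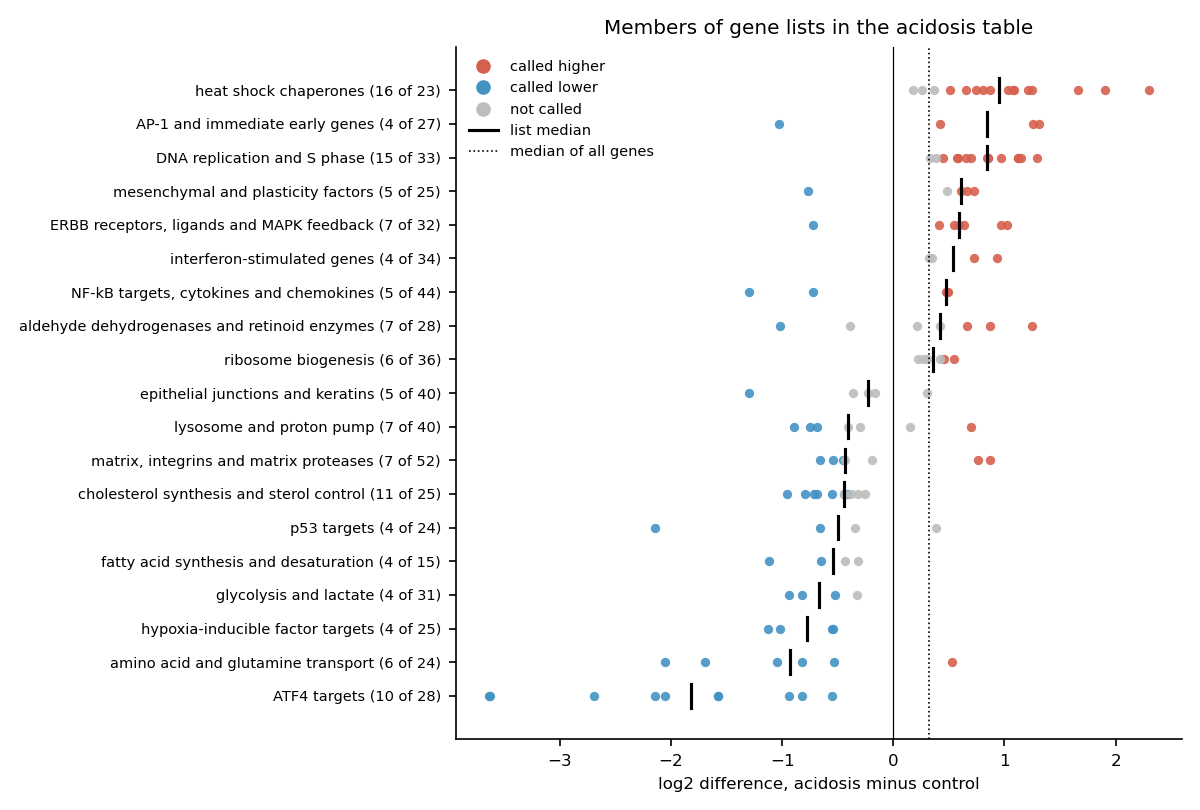
Log2 difference, acidosis minus control, of each listed member of the 19 lists with at least 4 genes in the table (x axis), with the number in the table of the number on the list. ATF4 targets lie lowest with a median of -1.82 and heat shock chaperones highest with 0.95. The dotted line is the 0.32 median of all 1721 genes.

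Matrix and plasticity genes were listed in small numbers, and their counts are to be read against the 60.0% called over all listed genes. Of 52 matrix, integrin and protease genes 7 were in the table, 2 called higher and 3 lower. PLAUR, the receptor of urokinase, stood at 24.12, 26.91 and 28.35 in acidosis, against 13.63, 14.24 and 14.16 in control (0.87, adjusted p = 0.00118, limma). Its ligand PLAU, the urokinase protease, moved the other way, with 231.43, 199.6 and 186.01 in acidosis, against 300.79, 341.75 and 334.32 in control (-0.66, adjusted p = 0.00671, limma). LOX, counted above among the hypoxia targets too, and COL16A1 were also called lower. Their calls rested on single libraries: without acidosis replicate 2 or 3 or control replicate 2, the list had 2 higher and 1 lower.

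Of 25 mesenchymal and plasticity factors 5 were listed, 3 called higher and 1 lower. INHBA, the activin A subunit, stood at 6.3, 5 and 4.21 in acidosis, against 2.44, 2.22 and 3.47 in control (0.73, adjusted p = 0.00736, limma). VIM, the intermediate filament vimentin, stood at 5.57, 6.99 and 6.43 in acidosis, against 3.07, 3.95 and 4.4 in control (0.61, adjusted p = 0.0112, limma), and lost its call without acidosis replicate 2 (adjusted p = 0.07, limma). NT5E, the ectoenzyme CD73, differed by 0.66 and by 0.34 without control replicate 1, and lost its call without acidosis replicate 1 or 2 (adjusted p = 0.0992 and 0.063, limma). TGFB2 fell to 2, 1.54 and 1.23 in acidosis, against 2.13, 3.6 and 4.83 in control (-0.77, adjusted p = 0.0111, limma). AXL, a receptor kinase, was not called (0.48, adjusted p = 0.0536, limma). Of 40 epithelial junction and keratin genes 5 were listed and KRT5, a basal keratin, was called: it stood at 15.56, 11.85 and 9.05 in acidosis, against 21.9, 35.02 and 38.08 in control (-1.30, adjusted p = 0.000782, limma). CDH1, E-cadherin, was not called (-0.36).

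Immune genes were few and moved both ways, and their counts are to be read against the 60.0% called over all listed genes. Of 34 interferon-stimulated genes 4 were listed and 2 called higher. CXCL10, a chemokine, stood at 14.14, 15.1 and 13.87 in acidosis, against 4.68, 10.52 and 11.08 in control (0.73, adjusted p = 0.0204, limma), and differed by 0.38 without control replicate 1. IFIT1, an RNA-binding antiviral protein, differed by 0.93 although 1 control lay inside the acidosis range, and by 0.58 without control replicate 1. Without acidosis replicate 1 neither was called (adjusted p = 0.0689 and 0.0736, limma), and CXCL10 was not called without acidosis replicate 2 (0.0588). Of 44 NF-kB targets and cytokines 5 were listed, 2 lower and 3 higher. IL1RN, the antagonist of interleukin 1, fell to 2.82, 3.59 and 3.32 in acidosis, against 10.35, 9.08 and 8.97 in control (-1.30, adjusted p = 4.85e-05, limma). TNFSF15 differed by -0.72. The 3 called higher, IL1B (0.48), BIRC3 (0.47) and S100A9 (0.49), all lost their calls without any acidosis replicate and without control replicate 2, with adjusted p from 0.0515 to 0.14 (limma) in those fits, and S100A9 also lost its call without control replicate 1 (0.0686). Of 24 antigen presentation genes 2 were listed. NLRC5, which drives class I genes, stood at 10.91, 7.97 and 8.29 in acidosis, against 12.59, 18.07 and 18.57 in control (-0.78, adjusted p = 0.00588, limma). CD274, which encodes PD-L1, was not in the table.

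The remaining lists gave few members, again to be read against the 60.0% called over all listed genes (35.9% higher, 24.2% lower). Of 24 p53 targets 4 were listed, with SESN2 and TP53INP1 called lower, TP53INP1 by -0.66 and, without acidosis replicate 2, by -0.59 (adjusted p = 0.0566, limma). Of 25 NRF2 targets 3 were listed, and SLC7A11 was called lower. SESN2 and SLC7A11 are also on the list of ATF4 targets and were counted there. Of 36 ribosome biogenesis genes 6 were listed, with LYAR and NOP16 called higher, by 0.55 and 0.46, and neither was called without acidosis replicate 2 or 3. Of 20 tRNA synthetases 2 and of 37 mitochondrial ribosome and respiratory chain genes 1 were listed, and none was called. Of 20 ABC transporters 2 were listed, and ABCA12, a lipid transporter, was called lower (-0.82).

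Several of the largest changes lay outside these lists. CLDN11, a tight junction claudin, stood at 12.56, 11.17 and 11.1 in acidosis, against 0.91, 3.7 and 5.09 in control (1.73, adjusted p = 0.000863, limma), and 22.5% of its windows occur in another transcript. IL13RA2, the decoy receptor of interleukin 13, stood at 3.27, 3.55 and 4.35 in acidosis, against 0.88, 0.76 and 0.53 in control (1.45, adjusted p = 2.34e-05, limma). AKAP12, a scaffold of protein kinase A, stood at 46.89, 32.46 and 31.06 in acidosis, against 4.78, 16.44 and 22.37 in control (1.48, adjusted p = 0.00623, limma). It differed by 0.88 without control replicate 1 and lost its call without acidosis replicate 1 (1.30, adjusted p = 0.0505, limma). FAM111B, a protease, differed by 1.42, by 0.73 without control replicate 1, and lost its call without acidosis replicate 1 (adjusted p = 0.0667, limma). HES7, a transcription factor of the segmentation clock, stood at 8.3, 9.84 and 9.85 in acidosis, against 2.76, 3.09 and 3.55 in control (1.32, adjusted p = 4.85e-05, limma). The noncoding LINC00364 and the pseudogene RPL19P12 differed by 1.42 and 1.66, and reads of a ribosomal protein pseudogene may stem from its parent gene, so RPL19P12 is uncertain.

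Among the falls, GPNMB, a glycoprotein of melanosomes and lysosomes, stood at 1.05, 0.53 and 0.37 in acidosis, against 7.78, 10.11 and 7.99 in control (-2.56, SE 0.185, adjusted p = 2.95e-07, limma). GPR1, the chemerin receptor, stood at 0.12, 0.17 and 0.41 in acidosis, against 10.02, 4.28 and 1.15 in control (-2.03, adjusted p = 0.00143, limma), and its controls differed more than for GPNMB. HEY1, a Notch target, stood at 5.8, 4.89 and 3.87 in acidosis, against 22.19, 23.83 and 18.87 in control (-1.96, adjusted p = 2.56e-06, limma). SLFN5, a Schlafen protein, stood at 6, 3.95 and 3.65 in acidosis, against 22.8, 26.73 and 11.15 in control (-1.88, adjusted p = 0.00012, limma). PABPC3 and PPIAL4G differed by -1.84 and -1.80, and both belong to multigene families, with 2.5% of the windows of PABPC3 and 10.0% of those of PPIAL4G in another transcript. By annotation, 1656 of the 1721 genes matched a protein-coding gene, 598 called higher and 383 lower. The 36 long noncoding RNAs had 11 called higher and 18 lower, and the 15 transcribed pseudogenes 3 higher and 10 lower. Over all listed genes 35.9% were called higher and 24.2% lower.

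The acidosis libraries were compared directly with the other treated groups, and no control library entered these fits. The genes are those in both tables, which the submitters kept in comparisons with the shared controls, so the controls still bear on which genes enter. Genes that differ between treatments because they are missing from a table are not covered. Against lactic acidosis, 636 of 1304 shared genes were called (48.8%), 131 higher (10.0%) and 505 lower (38.7%) in acidosis, with a median of -0.15. The groups did not overlap in 153 genes higher (11.7%) and 606 lower (46.5%). The medium of lactic acidosis had lactate and a pH of 6.7, against 6.5 in acidosis, so lactate and this pH step cannot be told apart. The split depended on scale. With library weights 32.5% of 610 calls were higher in acidosis, with equal medians 63.4% of 639, against 20.6% with the deposited values, and equal medians moved the median of all genes by 0.24. Under equal medians 29 of the 636 calls changed direction, none of them a gene with a value given here for that comparison.

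Signals of growth factor signalling were lower in acidosis than in lactic acidosis at every scaling. All 6 shared members of the ERBB and MAPK list were called lower, with the deposited values, with weights and with equal medians. DUSP4 stood at 80.16, 69.68 and 64.37 in acidosis, against 241.77, 253.54 and 243.83 in lactic acidosis (-1.78, adjusted p = 1.82e-06, limma). EREG stood at 130.15, 116.53 and 110.63 in acidosis, against 268.79, 331.7 and 246.65 in lactic acidosis (-1.23). FOSL1 stood at 246.97, 244.7 and 240.72 in acidosis, against 641.69, 726.48 and 705.17 in lactic acidosis (-1.50). The 4 AP-1 genes and the 5 mesenchymal factors were all called lower, 1 and 4 of them with equal medians. AKAP12 showed the largest difference, with 46.89, 32.46 and 31.06 in acidosis, against 453.89, 493.12 and 462.56 in lactic acidosis (-3.66, SE 0.139, adjusted p = 6.72e-07, limma). ALDH1A3 stood at 413.99, 365.08 and 355.16 in acidosis, against 806.64, 855.35 and 800.65 in lactic acidosis (-1.12).

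Some genes had opposite signs against the shared controls. TGFB2 stood at 2, 1.54 and 1.23 in acidosis, against 9.28, 11.14 and 8.89 in lactic acidosis (-2.06), while the controls had 2.13, 3.6 and 4.83. PLAU stood at 231.43, 199.6 and 186.01 in acidosis, against 443.76, 484.67 and 446.31 in lactic acidosis (-1.16), around controls between 300.79 and 341.75. CXCL10 was higher, with 14.14, 15.1 and 13.87 in acidosis, against 3.03, 1.89 and 1.87 in lactic acidosis (2.25, adjusted p = 2.38e-06, limma). S100A9, a calcium-binding alarmin, stood at 44.41, 38.52 and 36.39 in acidosis, against 9.26, 10.34 and 7.88 in lactic acidosis (2.01). Sterol genes were higher too. INSIG1 stood at 25.73, 26.38 and 25.79 in acidosis, against 9.01, 10.37 and 9.3 in lactic acidosis (1.35), and 6 of 11 shared cholesterol genes were called higher and none lower (8 with weights, 9 with equal medians). KRT5 stood at 15.56, 11.85 and 9.05 in acidosis, against 3.3, 3.04 and 3.37 in lactic acidosis (1.61).

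HSPA1A, DDIT3, CHAC1 and TXNIP each differed less between these groups than against control, but many members of the chaperone and ATF4 lists were called. HSPA1A stood at 376.96, 387.65 and 371.95 in acidosis, against 378.77, 344.07 and 375.74 in lactic acidosis, a difference of 0.05 that was not called (SE 0.073, adjusted p = 0.598, limma). Of the 13 shared chaperones 1 was called higher and 7 lower, with a median of -0.22, and with equal medians 4 were higher and 1 lower. Of the 6 shared ATF4 targets 2 were called higher and 2 lower, with a median of -0.05. Over all shared genes 10.0% were called higher and 38.7% lower. DDIT3 stood at 34.95, 29.18 and 30.43 in acidosis, against 15.06, 17.01 and 16.99 in lactic acidosis (0.90), and CHAC1 at 3.59, 4.29 and 4.05 in acidosis, against 11.12, 15.62 and 11.48 in lactic acidosis (-1.45). Both differences were called and far smaller than those to control. TXNIP stood at 21.56, 19.96 and 19.64 in acidosis, against 14.73, 15.88 and 15.05 in lactic acidosis (0.40, adjusted p = 0.00187, limma).

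**Figure D4:**
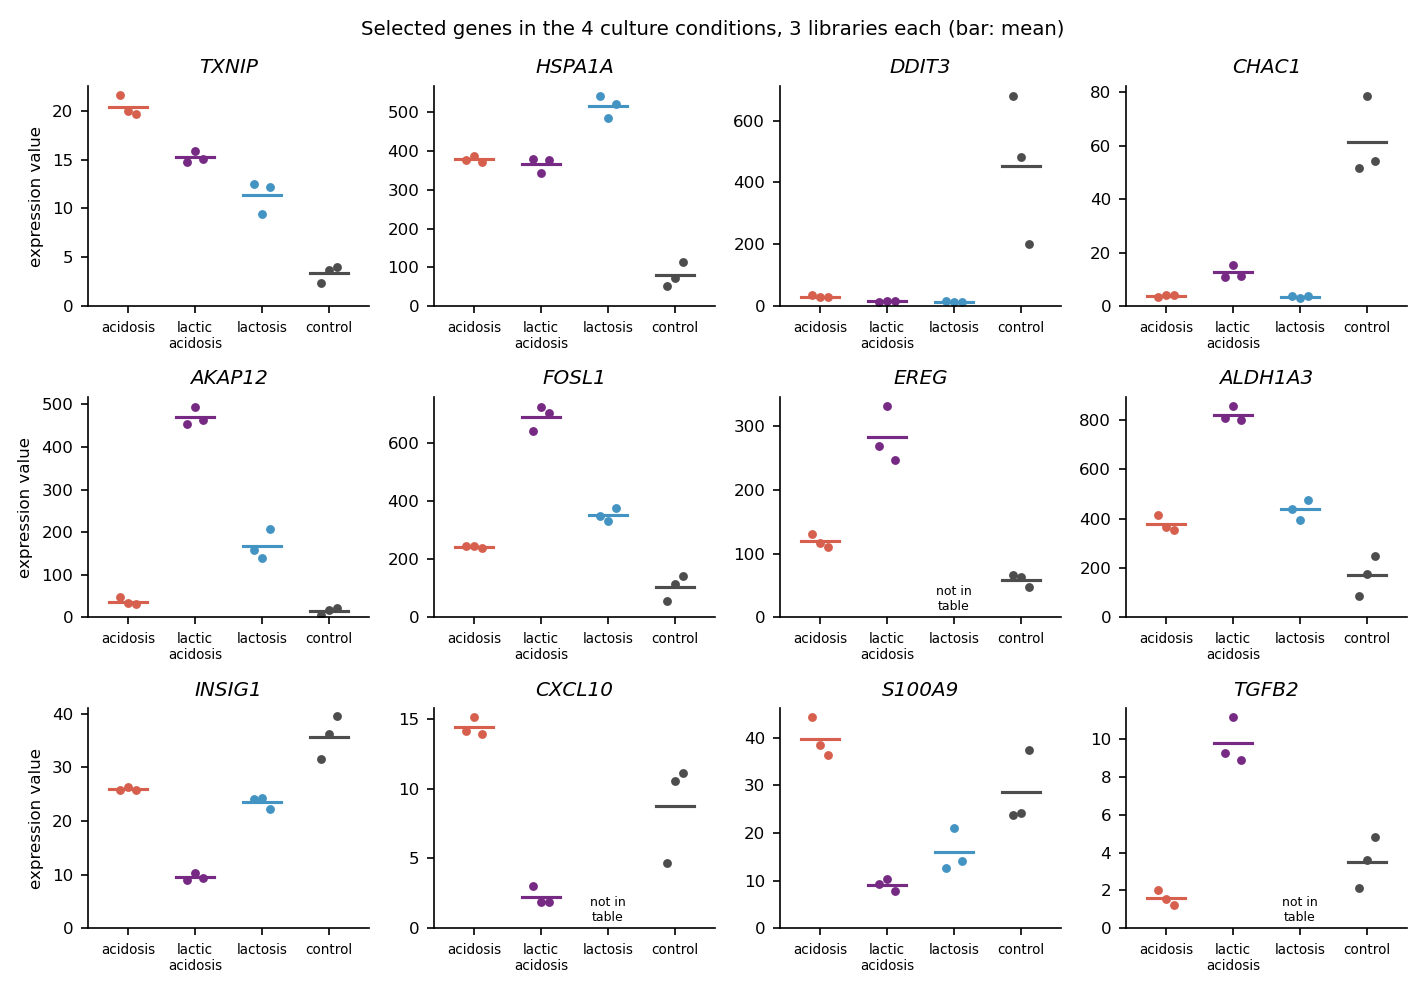
Expression value (y axes, from 0) of 12 named genes in each library of acidosis, lactic acidosis, lactosis and control, with the group mean as a bar. AKAP12, FOSL1, EREG and ALDH1A3 are lower in acidosis than in lactic acidosis, CXCL10, S100A9 and INSIG1 higher, and DDIT3 and CHAC1 lie far below control in all treated groups. Values missing from the lactosis table are marked.

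Against lactosis, which had lactate at pH 7.4 and no HEPES in its labels, 280 of 1173 shared genes were called (23.9%), 88 higher (7.50%) and 192 lower (16.4%) in acidosis, with a median of -0.05. The groups did not overlap in 157 genes higher (13.4%) and 309 lower (26.3%). With library weights 44.6% of 334 calls were higher and with equal medians 59.3% of 386, against 31.4% with the deposited values. Without acidosis replicate 2 there were 131 calls and without lactosis replicate 1, 156. RCSD1, an actin capping regulator, stood at 30.83, 24.29 and 22.02 in acidosis, against 5.86, 5.33 and 5.49 in lactosis (2.01, adjusted p = 5.74e-05, limma), and had 7, 6.83 and 7.07 in lactic acidosis. It was therefore far higher in acidosis than in either group given lactate, and nearer to control, where it had 29.51, 47.46 and 47.42. AKAP12 stood at 46.89, 32.46 and 31.06 in acidosis, against 159.18, 139.73 and 206.91 in lactosis (-2.17). HS3ST1, a heparan sulfate enzyme, stood at 29.2, 29.29 and 28.45 in acidosis, against 69.74, 68.85 and 72.78 in lactosis (-1.25). FGF5, a growth factor, stood at 1.91, 1.58 and 1.56 in acidosis, against 4.73, 5.59 and 5.66 in lactosis (-1.24).

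HSPA1A stood at 376.96, 387.65 and 371.95 in acidosis, against 542.82, 485.19 and 520.84 in lactosis (-0.44, adjusted p = 0.00411, limma), and HSPA8 stood at 1736.22, 1638.76 and 1649.36 in acidosis, against 2346.64, 2183.8 and 2558.35 in lactosis (-0.49). Of 14 shared chaperones 4 were called lower and none higher, and with equal medians 2 were called higher. DDIT3 stood higher in acidosis, at 34.95, 29.18 and 30.43, against 16.64, 12.95 and 12.5 in lactosis (1.12, adjusted p = 0.000905, limma), whereas CHAC1 was not called (0.15, adjusted p = 0.313, limma). TXNIP was higher by 0.79 and VEGFA by 0.32 (adjusted p = 0.00203 and 0.0204, limma). PFKFB2 stood at 5.14, 3.87 and 3.45 in acidosis, against 10.07, 8.65 and 11.97 in lactosis (-1.13). APOL3, an apolipoprotein L, stood at 9.92, 10.62 and 8.09 in acidosis, against 2.48, 1.89 and 1.99 in lactosis (1.75), while the controls had 5.18, 3.78 and 5.95.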

How the data were processed

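RNA was measured by poly(A) RNA sequencing of 75-nt single-end reads in 12 libraries of 4 groups. Per the submitters' processing notes, STAR and the hg38 build were used. The counting tool and the annotation are not given in the sources used here. The deposited expression values (a signal scaled by gene length and library, rounded by the authors, TPM or FPKM not stated) are not counts, so no count test was run. The deposited group means, taken here to be counts divided by size factors, served solely to fit library weights. The authors' fold changes and probabilities were not used. Nothing was recovered of read depth, so no counting interval is given. limma 3.58.1 in R 4.3.3 was run on log2(value + 1) over all genes of a comparison with no filter, with Benjamini-Hochberg adjustment and a threshold of 0.05, and was tested on simulated data. Tables and figures were made with Python 3.11.15, pandas 2.3.3, numpy 2.4.6 and matplotlib 3.10.9. The smallest unit is the library, and the most alike pair of libraries had equal values in 0.639% of genes.

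The members, the 37 gene lists and the rules were chosen with earlier results of these data known. Named against control were the 12 largest differences in each direction among called genes with a mean value of at least 1, up to 4 called members of each list, and a few chosen genes. Named between treated groups were the 8 largest in each direction. Further list members were added after their values were seen, to complete each list. Some genes that the rule names or the lists hold are not reported here. Genes were matched to RefSeq on GRCh38.p14 for positions and promoters, and 40 windows of 75 bases per gene were compared with GENCODE release 29 transcripts to find shared sequence. Sharing is not given above for every gene. It was 67.5% for ACAT2, 52.5% for POLA2, 42.5% for DDIT4, 40.0% for HSPE1, 30.0% for GINS4 and 27.5% for TGFB2 and SRSF2. Alternatives were pseudocounts of 0.1 and 5, a filter on a mean value of at least 1, library weights, equal medians, a trend with robust variance, a replicate block and each library left out.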

Additional observations from a re-analysis of the deposited data

Results flagged for a closer look

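Genes that differed most between acidosis and another treated group, by limma on the direct comparison with adjusted p under 0.05, are given as acidosis minus the other group on the log2 scale. Acidosis was higher than lactic acidosis for CXCL10 (2.25), S100A9 (2.01), RCSD1 (1.73), KRT5 (1.61), NEURL1B (1.39), CXXC5 (1.38), INSIG1 (1.35) and KLHL24 (1.29). Acidosis was lower than lactic acidosis for AKAP12 (-3.66), TGFB2 (-2.06), G0S2 (-2.00), INHBA (-1.99), DUSP4 (-1.78), ST3GAL1 (-1.72) and MGLL (-1.58).

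Acidosis was higher than lactosis for RCSD1 (2.01), APOL3 (1.75), CERS4 (1.56), S100A9 (1.30), SLC12A7 (1.15), NRIP1 (1.13), DDIT3 (1.12) and LDLRAD1 (1.10). Acidosis was lower than lactosis for AKAP12 (-2.17), ZBED2 (-1.45), HIST1H2BK (-1.33), HS3ST1 (-1.25), FGF5 (-1.24), PFKFB2 (-1.13), WDR66 (-1.11) and G0S2 (-1.07). G0S2, an inhibitor of triglyceride lipase, stood at 56.12, 63.51 and 65.49 in acidosis, against 275.13, 221.39 and 252.54 in lactic acidosis and 123.77, 139.17 and 127.78 in lactosis. AKAP12, G0S2, RCSD1 and S100A9 stand in both comparisons, which share the acidosis libraries.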

How the results depend on the processing

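Against control, 1033 genes were called. The counts were 656 with the replicate block, 1653 with library weights and 1571 with library weights and control replicate 1 left out, the last chosen after seeing the data, and 425 to 1251 with single libraries left out. Pseudocounts, the filter and the trend gave 884 to 1080. Against lactic acidosis, where 636 were called, leaving out single libraries gave 485 to 759 and the replicate block 590. Against lactosis, where 280 were called, leaving out single libraries gave 131 (without acidosis replicate 2) to 335, and the block 240. Same-numbered libraries did not pair (correlations of deviations -0.08, -0.05 and 0.04 against control), so the block is not the design. Under equal medians CTSB turned from 0.15 to -0.01 and SRSF6 from 0.15 to -0.02, neither called. The cause of these shifts was not tested. Read depth is unknown, so the precision of low values is not known, and the pseudocount shrinks their differences.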

Other observations

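Some gene groups were chosen after their values were seen, so their counts support nothing and are descriptions of acidosis against control. They are to be read against the 60.0% called over all listed genes (35.9% higher, 24.2% lower). Tubulins, the subunits of microtubules, had 8 of 16 members in the table, 7 called higher and 1 lower. TUBA4A stood at 63.85, 66.72 and 75.44 in acidosis, against 19.01, 32.44 and 48.89 in control (1.11, adjusted p = 0.00419, limma). TUBE1, a centriolar tubulin, stood at 12.01, 11.8 and 11.33 in acidosis, against 28.42, 33.28 and 20.57 in control (-1.14, adjusted p = 0.000526, limma). Without acidosis replicate 1 or 2, 4 tubulins were called higher and 1 lower. Of 17 cyclins, kinases and other regulators of G1, 7 were listed and 6 called higher, and without acidosis replicate 1 a single member was called. CCNE1 is among them and was also counted with the replication genes. SKP2, which marks cell cycle inhibitors for degradation, stood at 43.58, 38.53 and 39.96 in acidosis, against 9.24, 20.98 and 30.82 in control (1.11), and differed by 0.65 without control replicate 1. All 5 listed of 15 further HSP90 and HSP70 co-factors were called higher, from 0.67 for FKBP4 to 0.94 for FKBP5, and 3 without acidosis replicate 1. FKBP5 differed by 0.45 without control replicate 1, and it and FKBP4 lost their calls without acidosis replicate 1 (adjusted p = 0.0984 and 0.0505, limma).

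The clock, splicing and Notch counts are likewise to be read against 24.2% called lower and 35.9% called higher over all listed genes. Of 20 circadian clock genes 5 were listed, 4 called lower and 1 higher. NFIL3, a repressor of the clock output, stood at 16.79, 13.86 and 14.41 in acidosis, against 40, 40.45 and 28.01 in control (-1.20, adjusted p = 0.000304, limma), and TEF, an activator of it, differed by -1.01. Without acidosis replicate 1 there were 3 lower and none higher. Of 12 SR splicing factors 8 were listed and 4 called higher, with SRSF2 at 345.15, 382.83 and 374.23 in acidosis, against 141.14, 185.3 and 228.63 in control (1.01, adjusted p = 0.00125, limma). Without any acidosis library or control replicate 2, SRSF2 alone was called. Of 22 Notch genes 7 were listed, 4 called lower and 2 higher, and 2 were lower without acidosis replicate 2 or 3 or control replicate 2 or 3. JAG1, a ligand, stood at 33.72, 24.37 and 22.35 in acidosis, against 34.85, 58.87 and 55.18 in control (-0.85, adjusted p = 0.0073, limma).

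Of 38 zinc finger genes with a ZNF symbol, 26 were called lower and 3 higher, against 24.2% and 35.9% of all listed genes. Their median was -0.48. They ran from -1.27 for ZNF165, which stood at 12.07, 9.64 and 10.24 in acidosis, against 26.7, 30.88 and 23.72 in control, to 0.99 for ZNF367. With equal medians 34 were called lower and 3 higher, while 1310 of all 1721 genes were called, 49.1% of them higher. Of 33 solute carriers 13 were called lower and 10 higher, against 24.2% and 35.9% of all listed genes. The antisense RNA UNC5B-AS1 stood at 2.33, 2.47 and 2.79 in acidosis, against 9.33, 7.1 and 6.37 in control (-1.27, adjusted p = 0.000113, limma), and the sources do not state whether strand was used, so its reads and those of UNC5B cannot be told apart. The read-through gene TMX2-CTNND1 was listed at 0, 1.83 and 0 in acidosis, against 0 in every control library.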
